A study of Mus musculus with 18 samples.

Results

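Transcripts of 9 inhibitory receptor genes were followed across cultured and splenic CD8+ T-lineage cells of the mouse: Pdcd1, Ctla4, Lag3, Havcr2, Tigit, Btla, Cd160, Cd200 and Lair1. They were taken by gene symbol from the 43280 genes of the count files, and all 9 symbols were found. The cultured cells differed from splenic naive cells gene by gene and not as a block. Ctla4 was high in all 3 cultured groups and Btla and Cd200 were low in them, whereas Pdcd1 was high in Artificial CD8 and CD4+CD8+ cells and low in iRTE and splenic cells. Lag3 and Havcr2 were barely detected anywhere.

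RNA was sequenced from 18 libraries in 4 groups. The iRTE group (n = 5), Artificial CD8 (n = 5) and CD4+CD8+ (n = 3) were differentiated from cells that the labels name Pmel iPSC, induced pluripotent stem cells, and no treatment is given for any group. Artificial CD8 cells were CD8+ cells made on OP9-DL1, a stromal line that carries a Notch ligand and supports T-cell development in a dish, and CD4+CD8+ cells came from the same kind of culture. The iRTE cells were CD8+. A 3D thymic culture is named in the design and matches iRTE only because the other cultured groups are placed on OP9-DL1, and every sample, splenic ones included, carries a growth protocol with OP9-DL1. Splenic CD8 cells (n = 5) were naive CD8+ cells taken directly from transgenic mice. The labels do not spell out the transgene, its promoter, the number of stem cell clones, or the age of the mice. Sorting used CD45, CD8, CD4 and the alpha-beta T-cell receptor, and cells with NK1.1, a gamma-delta receptor or CD11c were gated out. Nothing in the labels says whether replicates are separate cultures or mice; the p-values below therefore reflect only how these libraries vary, which may be technical.

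Total counts ran from 11132768 to 19305751 per library, at which 3 counts equal 0.155 to 0.269 CPM, the count of a gene scaled to the total of its library. The labelled cell types were checked against markers. T-cell genes (8 of 8 listed) summed to at least 5502 CPM in every library, and Cd4 had no count in iRTE, 4.41 ± 2.85 CPM in Artificial CD8, 224 ± 59.8 CPM in CD4+CD8+ cells and 0.0324 ± 0.0724 CPM in splenic cells (SD). Stromal markers (6 listed) summed to 0.973 to 4.31 CPM in iRTE, 17.4 to 26.4 in Artificial CD8, 1.38 to 48.5 in CD4+CD8+ and 2.17 to 3.62 in splenic cells. Pdgfrb made up most of the sum in Artificial CD8, at 18.5 ± 3.45 CPM (SD). The part of these markers in the receptor levels was not tested. iRTE 4 stood apart among the iRTE libraries. It had the lowest summed level of 8 cell cycle genes, 562 CPM against 1510 to 1625 CPM in the other iRTE libraries, and the highest summed level of 6 naive T-cell genes, 5617 CPM against 3225 to 3712 CPM. The labels describe iRTE 1 to 3 as mature samples A to C and iRTE 4 and 5 as pmel_iRTE samples, so receptor calls that change between these sets are given with the values of each.

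Inhibitory receptors are surface proteins that dampen signals from the T-cell receptor. Several carry short tyrosine motifs in the cytoplasmic tail that recruit phosphatases such as SHP-1 and SHP-2. CTLA-4 acts largely by taking the ligands CD80 and CD86 away from the activating receptor CD28. They are best known from activated and exhausted T cells, and PD-1 (Pdcd1) and CTLA-4 also appear on thymocytes during selection. In bulk libraries, fewer cells that express a gene and less RNA per expressing cell cannot be told apart.

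The stretches just upstream of Pdcd1 and Ctla4 are shown because both genes were well measured and went opposite ways between iRTE and the other cultured groups. Each is the 250 bases before the annotated start, 5′ to 3′ on the gene's strand, from RefSeq (GRCm38.p6); the counts were made on another build, so no coordinate of theirs is used. Pdcd1 lies on the minus strand at chr1:94052554-94052803 and Ctla4 on the plus strand at chr1:60908775-60909024. Capitals mark a match to the NFAT core.
Pdcd1: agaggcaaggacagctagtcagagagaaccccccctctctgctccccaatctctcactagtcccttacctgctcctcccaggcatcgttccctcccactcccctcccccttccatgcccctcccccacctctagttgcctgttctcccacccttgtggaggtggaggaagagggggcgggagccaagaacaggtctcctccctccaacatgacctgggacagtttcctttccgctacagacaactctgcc
Ctla4: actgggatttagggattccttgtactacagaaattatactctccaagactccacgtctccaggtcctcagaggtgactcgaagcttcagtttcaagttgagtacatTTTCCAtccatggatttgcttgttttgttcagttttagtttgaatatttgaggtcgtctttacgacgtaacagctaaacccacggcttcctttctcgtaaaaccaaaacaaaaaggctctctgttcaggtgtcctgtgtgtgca
Both strands of each window were searched for an AP-1 site (TGANTCA), the NFAT core (TGGAAA), a Runx site (TGTGGT) and a TATA box (TATAAA). The Ctla4 window held the NFAT core on the opposite strand, as TTTCCA, 144 bases before the start, and 18.6% of 32851 mouse promoter windows of this length held that core. The Pdcd1 window held none of the 4 motifs, which says only that these letters are not in it. Runx letters, present in 14% of windows, were found upstream of Btla (178 bases before the start), Tigit (140 bases), Havcr2 (46 bases) and at both annotated Cd160 starts (76 and 101 bases). The Havcr2 window also held an AP-1 site (TGATTCA) 200 bases before the start, letters present in 6.75% of windows. A match is a description of letters and not a site shown to be bound.

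Differences were tested with edgeR's quasi-likelihood F test on the counts, fitted to all 18 libraries, and "edgeR adjusted p" below is its Benjamini-Hochberg value over 13922 genes, called at 0.05. Levels are CPM after scaling of library sizes, changes are log2 of the first group over the second, and SE is that of log2 CPM between libraries. Of the 9 genes, 7 passed the filter on low counts, and Lag3 and Havcr2 did not. Between iRTE and Artificial CD8, 4 of the 7 were called, 2 higher and 2 lower, where 38.7% of all genes tested were called (20% higher and 18.7% lower). Against splenic cells, 4 were higher and 2 lower in iRTE (58.2% of all genes called, 29.2% higher and 28.9% lower). In Artificial CD8, 3 were higher and 2 lower than in splenic cells (60.6% of all genes, 30.4% higher and 30.2% lower), and in CD4+CD8+ cells 4 were higher and 2 lower (56.2%, 28.9% higher and 27.4% lower). Against CD4+CD8+ cells, 1 was higher and 2 lower in iRTE (24.2%, 11.8% higher and 12.3% lower), and 2 were higher and none lower in Artificial CD8 (14.7%, 6.54% higher and 8.12% lower). Libraries of the 2 groups did not overlap for 2 of the 7 between iRTE and Artificial CD8 (23.6% of all genes tested) and for 2 between iRTE and CD4+CD8+ (19.5%). They did not overlap for 3 between Artificial CD8 and CD4+CD8+ (29%), and against splenic cells for 4 in iRTE (41.2%), 6 in Artificial CD8 (61.1%) and 6 in CD4+CD8+ (63.4%). With 7 genes these shares are not far from the background, so the results lie in the individual receptors. The median change of the 7 was 0.41 between iRTE and Artificial CD8, against 0.01 over all genes tested, and it was 1.37, 0.61 and 1.56 against splenic cells in iRTE, Artificial CD8 and CD4+CD8+ cells, against -0.05, -0.03 and -0.03 over all genes.

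**Figure D1:**
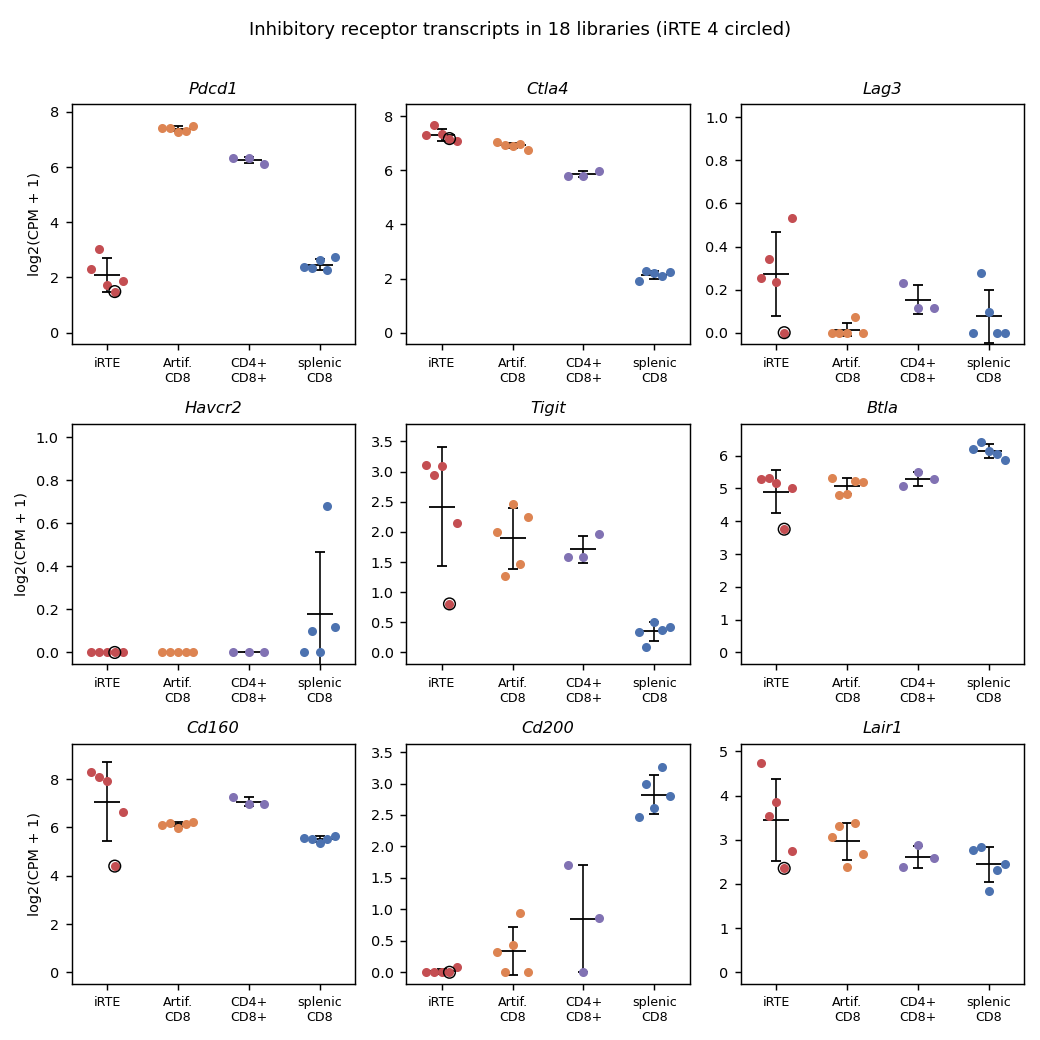
Levels of the 9 receptor transcripts as log2(CPM + 1), 1 point per library, with the mean and SD of each group as bars; the scale differs between panels and iRTE 4 is circled. Pdcd1 separates Artificial CD8 and CD4+CD8+ from iRTE and splenic libraries, Ctla4 separates all cultured libraries from splenic ones, and Btla and Cd200 are highest in splenic libraries.

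Pdcd1 encodes PD-1, the receptor for PD-L1 and PD-L2 that recruits SHP-2. It had 3.93, 7.19, 2.30, 1.81 and 2.69 CPM in iRTE 1 to 5, and 169, 169, 155, 156 and 180 CPM in Artificial CD8 1 to 5. CD4+CD8+ libraries had 79.5, 78.3 and 68.3 CPM, and splenic libraries 4.15, 4.10, 5.13, 3.80 and 5.69 CPM. The order was therefore Artificial CD8, then CD4+CD8+, with every library of each above every library of the next, and then splenic and iRTE cells, whose ranges overlapped. The fall in iRTE relative to Artificial CD8 was 5.56 on the log2 scale, 47.1-fold (SE 0.34, edgeR adjusted p = 5.44e-11). Relative to CD4+CD8+ cells Pdcd1 in iRTE changed by -4.42 (SE 0.34, edgeR adjusted p = 3.41e-09). Artificial CD8 cells were also above CD4+CD8+ cells, by 1.14 (SE 0.08, edgeR adjusted p = 0.0065). Against splenic cells Pdcd1 was 36.3-fold higher in Artificial CD8 (log2 change 5.18, SE 0.11, edgeR adjusted p = 1.21e-11) and 16.5-fold higher in CD4+CD8+ cells (4.05, SE 0.13, edgeR adjusted p = 6.87e-10). Marker levels were also higher in Artificial CD8 and CD4+CD8+ cells than in the other groups. The 7 markers of the CD4+CD8+ stage summed to 4.98 to 53.3 CPM in iRTE, 702 to 779 CPM in Artificial CD8, 1120 to 1391 CPM in CD4+CD8+ and 41.7 to 47.2 CPM in splenic cells, with Cd4 at 0 throughout iRTE and Rag1 and Ptcra at 0 throughout splenic libraries. The 8 cell cycle genes summed to 562 to 1625 CPM in iRTE, 2770 to 3447 CPM in Artificial CD8, 2643 to 2999 CPM in CD4+CD8+ and 386 to 445 CPM in splenic cells. Their part in the Pdcd1 level was not tested.

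Between iRTE and splenic cells the Pdcd1 change was -0.37 and did not pass (SE 0.35, edgeR adjusted p = 0.228). This rested on 1 library: without iRTE 2, the highest, the change was -0.79 and passed (edgeR adjusted p = 0.00159). In iRTE 4 and 5 alone it was -1.01 (edgeR adjusted p = 0.000575), and in iRTE 1 to 3 alone -0.02 (edgeR adjusted p = 0.962). The falls relative to Artificial CD8 and CD4+CD8+ cells were called in both sets of iRTE libraries.

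Ctla4 encodes CTLA-4, the receptor that competes with CD28 for CD80 and CD86. It had 158, 203, 162, 144 and 134 CPM in iRTE 1 to 5, 131, 120, 119, 125 and 108 CPM in Artificial CD8 1 to 5, 55.1, 53.7 and 62.7 CPM in CD4+CD8+ 1 to 3, and 2.75, 3.89, 3.58, 3.26 and 3.73 CPM in splenic CD8 1 to 5. No library of a group overlapped a library of another, so the order was iRTE, Artificial CD8, CD4+CD8+ and splenic.

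Against splenic cells Ctla4 was 46.7-fold higher in iRTE (log2 change 5.55, SE 0.13, edgeR adjusted p = 7.27e-16), 35.2-fold higher in Artificial CD8 (5.14, SE 0.10, edgeR adjusted p = 1.71e-15) and 16.7-fold higher in CD4+CD8+ cells (4.06, SE 0.11, edgeR adjusted p = 1.13e-13). Ctla4 in iRTE exceeded CD4+CD8+ cells by 1.49 (SE 0.12, edgeR adjusted p = 3.73e-07), and in Artificial CD8 it did so by 1.08 (SE 0.08, edgeR adjusted p = 5.06e-05). The step between iRTE and Artificial CD8 was small, 1.33-fold (log2 change 0.41, SE 0.11, edgeR adjusted p = 0.00697). It was 0.53 in iRTE 1 to 3 alone and 0.20 in iRTE 4 and 5 alone, where it did not pass (edgeR adjusted p = 0.225). Some markers of gamma-delta T cells, which the sort gated out by their receptor, were also higher in the cultured groups than in splenic cells. Only Tcrg-C1 and Tcrg-C2 were called higher in all 3 cultured groups. Sox13 was called lower in iRTE and CD4+CD8+ cells than in splenic cells, and Blk lower in iRTE and higher in Artificial CD8. The 4 markers found in the files summed to 1145 to 2058 CPM in iRTE, 1902 to 2238 CPM in Artificial CD8, 1434 to 1602 CPM in CD4+CD8+ and 54.9 to 63.1 CPM in splenic cells. None was at 0 throughout a group. Most of each sum came from the receptor constant genes Tcrg-C1 and Tcrg-C2, while Sox13, the transcription factor of the list, had 0.125 ± 0.278 CPM in iRTE, 4.13 ± 1.34 in Artificial CD8, 1.35 ± 1.10 in CD4+CD8+ and 5.71 ± 1.12 in splenic cells. Blk had 0.191 ± 0.394 CPM in iRTE, 16.4 ± 3.13 in Artificial CD8, 3.11 ± 1.24 in CD4+CD8+ and 1.78 ± 0.652 in splenic cells. The part of these markers in the Ctla4 level was not tested. Ctla4 was called higher in iRTE cells where Pdcd1 was called lower, relative to both Artificial CD8 and CD4+CD8+ cells.

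**Figure D2:**
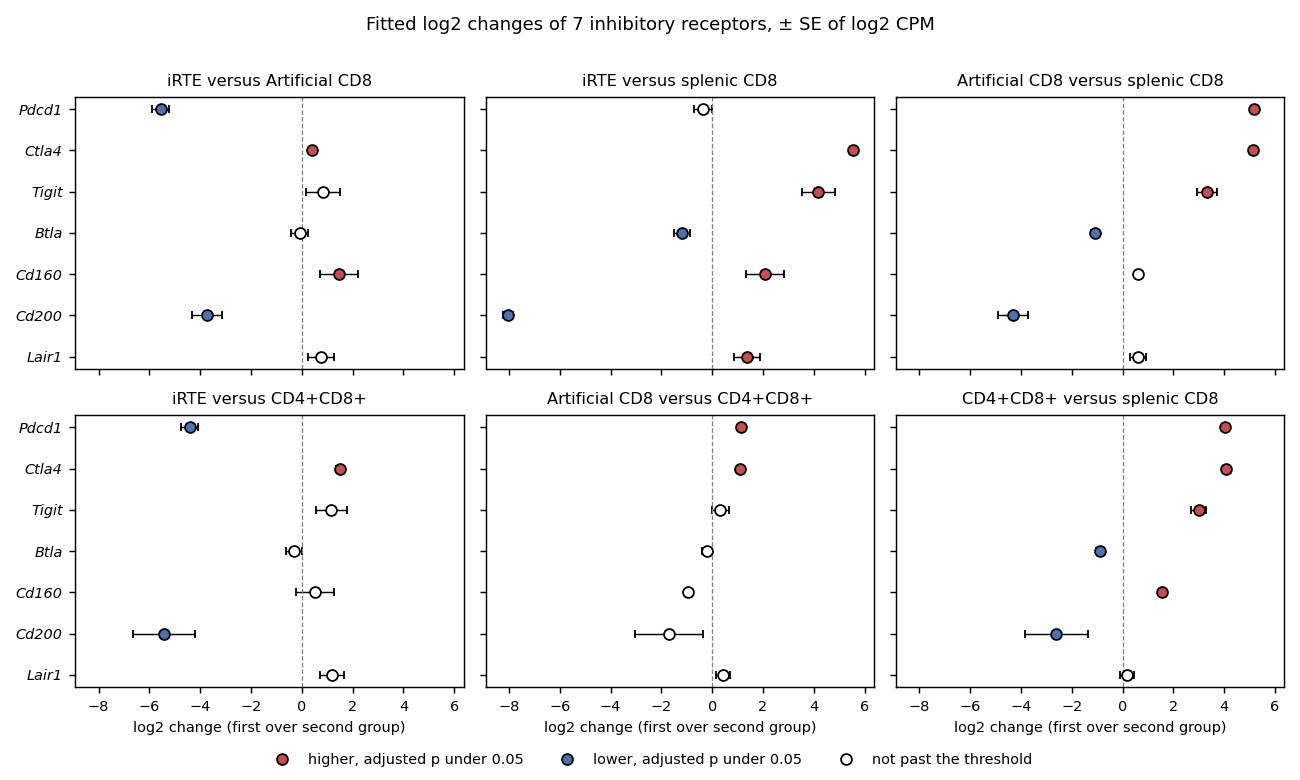
Fitted log2 changes of the 7 receptors that passed the filter, 1 panel per comparison (first group over second), with bars of ± SE of log2 CPM between libraries. Filled points passed an adjusted p of 0.05. The bars do not measure the uncertainty of changes near the floor, such as those of Cd200 in iRTE, which held 1 count. Pdcd1 lies at -5.56 between iRTE and Artificial CD8 and at -0.37, unfilled, between iRTE and splenic cells, while Ctla4 is above 0 in all 6 panels.

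Btla and CD160 share a ligand, the herpesvirus entry mediator encoded by Tnfrsf14. Btla, a receptor of the CD28 family, had 37.7, 38.9, 34.7, 12.5 and 31.1 CPM in iRTE 1 to 5, 38.5, 26.6, 27.3, 36.6 and 35.5 CPM in Artificial CD8 1 to 5, 32.6, 44.4 and 37.9 CPM in CD4+CD8+ 1 to 3, and 73.0, 85.1, 70.0, 65.8 and 57.4 CPM in splenic CD8 1 to 5. Every cultured library was below every splenic library, and the cultured groups overlapped each other. Btla was 2.27-fold lower in iRTE than in splenic cells (log2 change -1.18, SE 0.32, edgeR adjusted p = 0.00018). It was 2.13-fold lower in Artificial CD8 (-1.09, SE 0.15, edgeR adjusted p = 0.00032) and 1.84-fold lower in CD4+CD8+ cells (-0.88, SE 0.16, edgeR adjusted p = 0.00842). None of the 3 comparisons among cultured groups passed, with changes of -0.09 for iRTE over Artificial CD8, -0.31 for iRTE over CD4+CD8+ and -0.22 for Artificial CD8 over CD4+CD8+ (edgeR adjusted p = 0.781, 0.416 and 0.63).

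Cd160, which encodes a receptor anchored in the membrane by a lipid and found on some CD8+ T and NK cells, varied most within iRTE. It had 317, 274, 243, 20.1 and 98.1 CPM in iRTE 1 to 5, a 15.7-fold span, and 68.3, 72.5, 62.5, 70.5 and 73.5 CPM in Artificial CD8 1 to 5. CD4+CD8+ libraries had 154, 123 and 125 CPM and splenic libraries 46.5, 45.3, 40.0, 45.3 and 49.8 CPM. iRTE 1 to 3 were above every library of the other groups, iRTE 5 lay between Artificial CD8 and CD4+CD8+ libraries, and iRTE 4 was below all other libraries.

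Over all 5 iRTE libraries Cd160 was higher than in Artificial CD8 by 1.45 (SE 0.74, edgeR adjusted p = 0.00937) and higher than in splenic cells by 2.07 (SE 0.74, edgeR adjusted p = 0.000402), the first not passing by limma-voom (0.89, limma adjusted p = 0.167). In iRTE 1 to 3 alone these changes were 2.00 and 2.62 (edgeR adjusted p = 1.68e-11 and 1.74e-13). In iRTE 4 and 5 alone they were -0.24 and 0.38 and did not pass (edgeR adjusted p = 0.628 and 0.375). Against CD4+CD8+ cells the change was 0.50 over all 5 libraries (SE 0.75, edgeR adjusted p = 0.486), 0.80 without iRTE 4 (edgeR adjusted p = 0.0183), 1.05 in iRTE 1 to 3 (edgeR adjusted p = 1.17e-06) and -1.18 in iRTE 4 and 5 (edgeR adjusted p = 0.0362), so the 2 sets of iRTE libraries were called in opposite directions. Cd160 differed between iRTE 4 and iRTE 5, at 20.1 and 98.1 CPM, so the call in iRTE 4 and 5 rests on 2 unlike libraries. Whether the cell cycle and naive marker levels of iRTE 4 have a part in its Cd160 level was not tested. The 6 NK-cell markers summed to 37.4, 17.7, 7.08, 12.6 and 5.05 CPM in iRTE 1 to 5. The sums were 38.4 to 64.8 CPM in Artificial CD8, 32.0 to 48.3 CPM in CD4+CD8+ and 7.55 to 13.7 CPM in splenic cells. Eomes, which CD8+ T cells also express, made up most of these sums. It had 13.7 ± 10.9 CPM in iRTE, 45.3 ± 11.4 in Artificial CD8, 38.9 ± 7.90 in CD4+CD8+ and 8.36 ± 2.50 in splenic cells. Klra8 was at 0 in every library and Ncr1 in all iRTE and CD4+CD8+ libraries. Klrb1c, Klre1 and Klrk1 had means of 1.55, 0.470 and 0.208 CPM in iRTE and 0.438, 1.67 and 2.80 CPM in Artificial CD8. In CD4+CD8+ cells the means were 0.164, 0.329 and 1.04 CPM, and in splenic cells 0.459, 0.122 and 2.26 CPM. Klrb1c ran from 0, in 2 iRTE libraries, to 3.93 CPM in iRTE. The part of these markers in the Cd160 level was not tested.

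Outside iRTE, Cd160 was higher in CD4+CD8+ than in splenic cells by 1.56 (SE 0.11, edgeR adjusted p = 0.00781). Artificial CD8 libraries were all above splenic and all below CD4+CD8+ libraries, but neither difference passed in the fit over 18 libraries (0.61, SE 0.07, edgeR adjusted p = 0.205; and -0.95, SE 0.11, edgeR adjusted p = 0.184). In fits of the compared groups alone, which leave the spread of iRTE out, both passed (0.63 and -0.95, edgeR adjusted p = 1.42e-06 and 6.64e-05). Cd160 overlaps the antisense gene Pdzk1 over 68 exon bases, and whether counting used strand is not stated in the sources used here.

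Tigit encodes the receptor for CD155 (Pvr) and nectins, in competition with the activating receptor CD226. It was low throughout, with 7.66, 6.66, 7.52, 0.747 and 3.45 CPM in iRTE 1 to 5, 3.00, 1.42, 4.50, 1.78 and 3.76 CPM in Artificial CD8 1 to 5, 1.99, 2.01 and 2.91 CPM in CD4+CD8+ 1 to 3, and 0.270, 0.0707, 0.421, 0.301 and 0.339 CPM in splenic CD8 1 to 5. All cultured libraries were above all splenic ones. Splenic libraries held 21 Tigit counts in all, with 1 in splenic CD8 2, under the floor of 3 counts. The size of the folds that follow is therefore uncertain. Relative to splenic cells Tigit was 18-fold higher in iRTE (log2 change 4.17, SE 0.65, edgeR adjusted p = 8.77e-06), 10.1-fold higher in Artificial CD8 (3.33, SE 0.39, edgeR adjusted p = 6.64e-05) and 8.03-fold higher in CD4+CD8+ cells (3.00, SE 0.30, edgeR adjusted p = 0.000514). Comparisons among the cultured groups did not pass, with a change of 0.84 for iRTE over Artificial CD8 (SE 0.67, edgeR adjusted p = 0.187) and 1.17 for iRTE over CD4+CD8+ (SE 0.62, edgeR adjusted p = 0.169). Without iRTE 4, whose Tigit was the lowest of the cultured libraries, both passed (1.12 and 1.45, edgeR adjusted p = 0.0248 and 0.0243). In iRTE 1 to 3 alone both also passed (1.33 and 1.66, edgeR adjusted p = 0.00696 and 0.00703), and in iRTE 4 and 5 alone the changes were -0.47 and -0.14 and did not (edgeR adjusted p = 0.581 and 0.91).

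Cd200 encodes a surface ligand whose receptor, CD200R1, carries the inhibitory signal. Its counts in iRTE came to 1 read in iRTE 5 (0.0639 CPM) and 0 in iRTE 1 to 4. Artificial CD8 libraries had 0.245, 0, 0.355, 0.913 and 0 CPM, CD4+CD8+ libraries 2.25, 0 and 0.809 CPM, and splenic libraries 4.53, 6.93, 5.13, 8.56 and 5.94 CPM. Splenic libraries were above every cultured library. As iRTE held 1 count in all, differences from it are given as ratios of summed counts with exact 95% intervals that cover counting error only: Cd200 in iRTE was 22.2-fold lower than in Artificial CD8 (3.66 to 906), 69.4-fold lower than in CD4+CD8+ cells (11.7 to 2817) and 452-fold lower than in splenic cells (80.7 to 17881). Single libraries carried the first and second ratios: Artificial CD8 4 held 18 of 28 counts and CD4+CD8+ 1 held 26 of 36. Without these libraries, an alternative chosen after seeing the data, the ratios were 10.2-fold (1.45 to 441) and 28.7-fold (4.08 to 1246).

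Cd200 was called lower than in splenic cells in iRTE (edgeR adjusted p = 1.78e-05), in Artificial CD8 (log2 change -4.30, SE 0.59, edgeR adjusted p = 0.000275) and in CD4+CD8+ cells (-2.60, SE 1.23, edgeR adjusted p = 0.028). It was also called lower in iRTE than in Artificial CD8 (edgeR adjusted p = 0.0367) and CD4+CD8+ cells (edgeR adjusted p = 0.00608), at levels that touch the floor of detection. The first of these calls was lost without any 1 of iRTE 1 to 4 or of Artificial CD8 3 and 4 (edgeR adjusted p between 0.0554 and 0.144), and the second without CD4+CD8+ 1 (edgeR adjusted p = 0.0607). Neither passed by limma-voom (limma adjusted p = 0.335 and 0.101), nor in iRTE 4 and 5 alone (edgeR adjusted p = 0.227 and 0.0688); in iRTE 1 to 3 alone the second passed and the first did not (edgeR adjusted p = 0.0172 and 0.0763). The call between CD4+CD8+ and splenic cells was lost without CD4+CD8+ 2 or 3 (edgeR adjusted p = 0.0846 and 0.0901) or splenic CD8 4 (edgeR adjusted p = 0.0578), and narrowly without splenic CD8 2. B cells also express Cd200. The 5 B-cell markers summed to 3.45 to 7.09 CPM in iRTE, 2.83 to 6.86 CPM in Artificial CD8, 4.69 to 5.79 CPM in CD4+CD8+ and 31.7 to 43.9 CPM in splenic cells, with Ms4a1 and Pax5 at 0 in all cultured libraries and none at 0 throughout splenic ones. Erythroid markers summed to 148 to 190 CPM in splenic cells and to at most 2.31 CPM elsewhere. The part of such cells in the splenic Cd200 level was not tested.

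Lair1 encodes a collagen receptor with inhibitory tyrosine motifs. It had 25.6, 10.6, 13.5, 4.11 and 5.75 CPM in iRTE 1 to 5, 7.35, 8.87, 4.20, 9.44 and 5.41 CPM in Artificial CD8 1 to 5, 4.24, 6.36 and 5.02 CPM in CD4+CD8+ 1 to 3, and 5.77, 6.15, 2.60, 3.98 and 4.50 CPM in splenic CD8 1 to 5. iRTE 1 to 3 were above all other libraries, while iRTE 4 and 5 lay within the range of the other groups. Lair1 was called higher in iRTE than in splenic cells over all 5 libraries (log2 change 1.37, SE 0.51, edgeR adjusted p = 0.00732), in iRTE 1 to 3 at 1.85 (edgeR adjusted p = 6.23e-05) and not in iRTE 4 and 5 (0.10, edgeR adjusted p = 0.848). The change of iRTE over Artificial CD8 was 0.75 and over CD4+CD8+ cells 1.19, and neither passed (SE 0.51 and 0.49, edgeR adjusted p = 0.143 and 0.0809). Without iRTE 4 both passed (0.97 and 1.41, edgeR adjusted p = 0.0347 and 0.0183), and without iRTE 5 the change over CD4+CD8+ cells did so (1.37, edgeR adjusted p = 0.0346). In iRTE 1 to 3 alone both passed (1.23 and 1.67, edgeR adjusted p = 0.00365 and 0.00192), and in iRTE 4 and 5 alone neither did (-0.52 and -0.078, edgeR adjusted p = 0.31 and 0.922). Artificial CD8 and CD4+CD8+ cells did not pass against splenic cells (0.61 and 0.18, edgeR adjusted p = 0.191 and 0.76), but Artificial CD8 was called higher than splenic cells in a fit of these 2 groups alone (0.62, edgeR adjusted p = 0.0426).

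Lag3, whose product binds MHC class II, and Havcr2, which encodes TIM-3, were too low for the fit. Lag3 had 14 counts over the 5 iRTE libraries, 1 count over Artificial CD8, 4 over CD4+CD8+ and 4 over splenic libraries, with its highest level at 0.447 CPM in iRTE 5. An exact two-sided permutation test of log2(CPM + 1) gave p = 0.0476 for iRTE over Artificial CD8 and p = 0.0357, the smallest it can give, for Artificial CD8 below CD4+CD8+ cells. These are 2 of 12 unadjusted exact tests of the 2 genes. The first no longer passed without most single libraries (exact p of 0.0794 to 0.0952). With 1 library left out the second could not pass, as its values (exact p of 0.0571 to 0.0952) were then the smallest possible. The other 10 tests had an exact p of 0.135 or more. Of these, iRTE over splenic cells came to an exact p of 0.0476 for Lag3 without iRTE 4. Havcr2 had no count in any cultured library and 12 counts in splenic cells, 10 of them in splenic CD8 4 (0.603 CPM). The myeloid gene Lyz2 was also highest in splenic CD8 4, at 9.83 CPM against 1.41 to 5.85 CPM in the other splenic libraries. Among the other myeloid or dendritic markers, Cd68 and Itgax were highest there too, at 4.22 and 1.15 CPM. Csf1r, Emr1 and Siglech were highest in other splenic libraries, at 2.11, 0.424 and 0.0849 CPM, and Cd14 had no splenic count. The 7 markers summed to 5.16 to 15.6 CPM in splenic cells. In iRTE, Artificial CD8 and CD4+CD8+ libraries they summed to at most 4.21, 4.57 and 1.42 CPM. Their part in the Havcr2 level was not tested. At these depths neither Lag3 nor Havcr2 could be compared further.

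To compare receptors with each other, levels were divided by exon length from GENCODE M21, which is not the annotation of the counts. The 9 genes summed to 159 ± 63.2 CPM per kilobase in iRTE, 178 ± 6.73 in Artificial CD8, 129 ± 6.03 in CD4+CD8+ and 44.6 ± 2.69 in splenic cells (SD, n = 5, 5, 3 and 5). Cd160 and Ctla4 led in iRTE, at 72 ± 47.6 and 68.8 ± 11.3 CPM per kilobase, and their order does not exceed the spread of Cd160. In iRTE 4 Ctla4 alone made up 81.9% of the sum. Pdcd1 led in Artificial CD8 at 85.8 ± 5.45 CPM per kilobase, a median of 47.6% of the sum, and Cd160 in CD4+CD8+ cells at 50.7 ± 6.45, or 37.9%. Btla led in splenic cells at 20.7 ± 3.00 CPM per kilobase, a median of 47.9% of the sum, followed by Cd160 at 17.2 ± 1.34. In iRTE Pdcd1 made up a median of 1.24% of the sum.

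**Figure D3:**
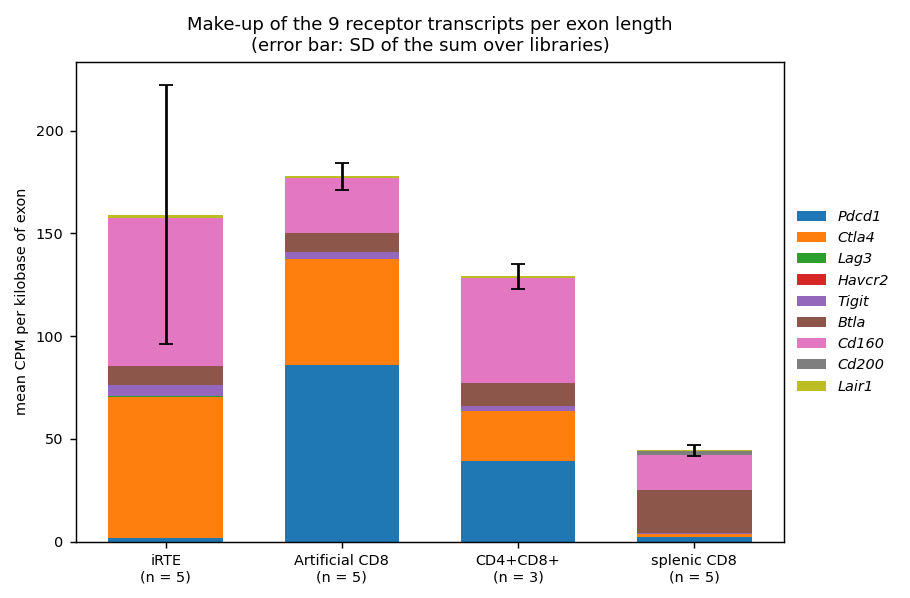
Mean CPM per kilobase of exon of each of the 9 receptor transcripts, stacked by group, with the SD of the sum over libraries as the error bar. The stack is mostly Cd160 and Ctla4 in iRTE, Pdcd1 and Ctla4 in Artificial CD8, Cd160 and Pdcd1 in CD4+CD8+ cells, and Btla and Cd160 in the much smaller splenic sum of 44.6.

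Among 15 ligands and binding partners of these receptors, 12 passed the filter. In iRTE relative to Artificial CD8, 4 were higher and 4 lower (38.7% of all genes called); relative to splenic cells 7 were higher and 5 lower (58.2% of all genes). Cd274, which encodes PD-L1, had 17.3 ± 7.22 CPM in iRTE, 5.33 ± 1.64 in Artificial CD8, 7.32 ± 2.02 in CD4+CD8+ and 41.9 ± 5.11 in splenic cells, so that it was higher in iRTE than in Artificial CD8 by 1.69 (SE 0.32, edgeR adjusted p = 5.34e-05), where Pdcd1 was lower. Lgals3, the gene of galectin-3, was called higher than in splenic cells in all 3 cultured groups, with 161 ± 25.5, 54.1 ± 5.33 and 206 ± 26.0 CPM in iRTE, Artificial CD8 and CD4+CD8+ cells against 0.542 ± 0.531 CPM. Pvr, the TIGIT ligand gene, was lower in iRTE than in each other group, at 5.07 ± 2.89 CPM against 21.0 ± 3.06 in Artificial CD8, 38.4 ± 5.33 in CD4+CD8+ and 26.3 ± 2.01 in splenic cells (edgeR adjusted p = 2.07e-05, 2.74e-06 and 1.95e-06).

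The CTLA-4 ligands differed in pattern. Cd80 had 1.73 ± 0.928 CPM in iRTE, 9.18 ± 1.64 in Artificial CD8, 1.25 ± 0.729 in CD4+CD8+ and 0.110 ± 0.127 in splenic cells, and was higher in Artificial CD8 than in CD4+CD8+ cells (log2 change 2.86, SE 0.42, edgeR adjusted p = 0.00463). Cd86 had no count in any Artificial CD8 or CD4+CD8+ library, 2.73 ± 1.86 CPM in iRTE with 0 in iRTE 4, and 19.6 ± 2.05 CPM in splenic cells. Tnfrsf14, the partner of BTLA and CD160, was lower than in splenic cells in all 3 cultured groups, at 3.89 ± 1.77, 3.13 ± 0.779 and 1.32 ± 0.752 CPM in iRTE, Artificial CD8 and CD4+CD8+ against 15.6 ± 2.64 CPM (edgeR adjusted p = 4.04e-05, 6.76e-06 and 2.08e-06). Cd200r1 was lower in iRTE than in splenic cells, at 0.268 ± 0.600 against 5.03 ± 0.945 CPM (edgeR adjusted p = 0.000851), as Cd200 was.

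Of 4 further receptors that share ligands or a family with the 9, 3 were higher (Icos, Cd226 and Cd96) and Cd28 was lower in iRTE than in Artificial CD8 (38.7% of all genes called). Cd28 had 33.4 ± 4.88 CPM in iRTE, 59.7 ± 4.48 in Artificial CD8, 52.6 ± 7.73 in CD4+CD8+ and 36.1 ± 4.25 in splenic cells. Within a library, the ratio of Ctla4 to Cd28 counts had a median of 5.07 in iRTE (3.19 to 6.35), 2.00 in Artificial CD8 (1.89 to 2.15), 1.13 in CD4+CD8+ (0.873 to 1.32) and 0.0964 in splenic cells (0.0887 to 0.0993). The 4 ranges do not overlap, nor do those of Ctla4 alone. This is 1 of 3 ratios, chosen after their values were seen and given as a description. The other 2 overlapped among cultured groups. Tigit over Cd226 ran from 0.0291 to 0.150 in iRTE, 0.0735 to 0.332 in Artificial CD8 and 0.160 to 0.279 in CD4+CD8+ cells. Cd160 over Btla ran from 1.61 to 8.39 in iRTE, 1.77 to 2.72 in Artificial CD8 and 2.78 to 4.72 in CD4+CD8+ cells. Both were lower in splenic cells, at most 0.00233 and 0.868. Cd226, the competitor of TIGIT, was lower in all 3 cultured groups than in splenic cells, at 54.2 ± 23.1, 14.3 ± 2.82 and 10.9 ± 1.38 CPM in iRTE, Artificial CD8 and CD4+CD8+ against 175 ± 21.7 CPM (edgeR adjusted p = 5.3e-06, 5.89e-10 and 7.84e-09), whereas Tigit was higher in them.

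**Figure D4:**
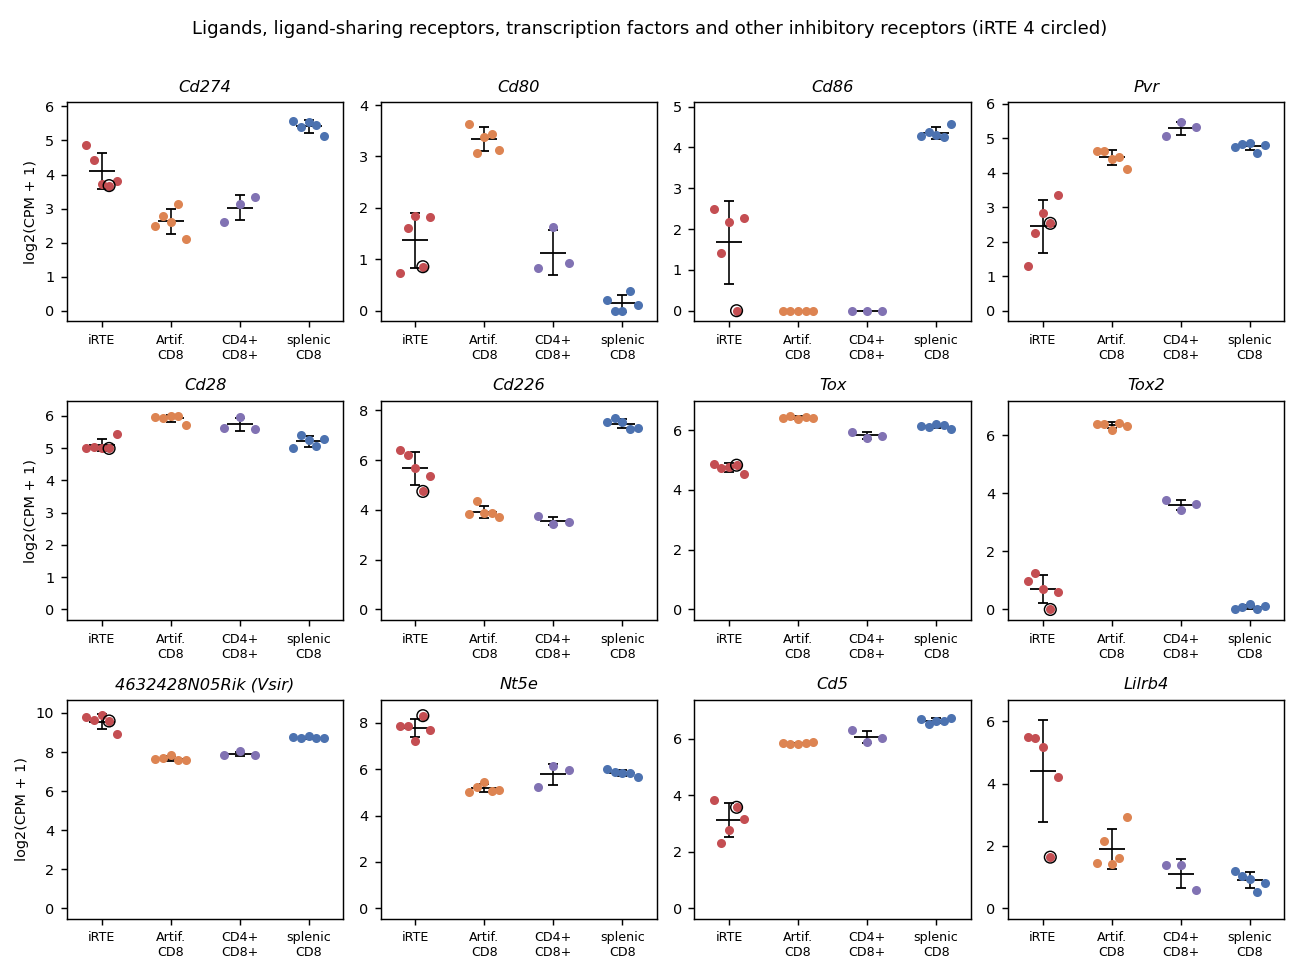
Levels of 12 ligands, ligand-sharing receptors, transcription factors and other inhibitory receptors as log2(CPM + 1), 1 point per library, with the mean and SD of each group as bars; the scale differs between panels and iRTE 4 is circled. Cd274, Cd226 and Cd86 are highest in splenic libraries, Tox2 and Cd80 in Artificial CD8, and 4632428N05Rik and Nt5e in iRTE, with 1 iRTE value near the splenic level for 4632428N05Rik.

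Of 12 genes of receptor signalling and trafficking, 4 were higher and 2 lower in iRTE than in Artificial CD8 (38.7% of all genes called), and 4 higher and 3 lower than in splenic cells (58.2%), shares close to the background, while none passed between Artificial CD8 and CD4+CD8+ cells (14.7%). Ptpn6, which encodes SHP-1, had 264 ± 59.0 CPM in iRTE, 408 ± 15.8 in Artificial CD8, 431 ± 10.1 in CD4+CD8+ and 517 ± 21.1 in splenic cells. It was lower in iRTE than in each of the others (edgeR adjusted p = 0.000229, 0.000491 and 9.65e-07). Lrba, whose product protects CTLA-4 from degradation, had 18.1 ± 8.03 CPM in iRTE, 21.2 ± 4.89 in Artificial CD8, 14.2 ± 4.58 in CD4+CD8+ and 47.1 ± 8.79 in splenic cells, and was lower in all 3 cultured groups than in spleen (edgeR adjusted p = 0.000189, 0.000827 and 0.000163). Trat1, an adaptor that stabilises CTLA-4 at the surface, was higher in all 3, at 188 ± 58.1, 91.9 ± 3.96 and 121 ± 12.2 CPM in iRTE, Artificial CD8 and CD4+CD8+ against 48.5 ± 3.22 CPM (edgeR adjusted p = 4.89e-09, 2.64e-05 and 2.28e-06).

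Transcription factors known to act on inhibitory receptor genes were followed as a list of 17, all measured. In iRTE 4 were higher and 7 lower than in Artificial CD8 (of all genes, 20% higher and 18.7% lower), and 2 higher and 6 lower than in CD4+CD8+ cells (11.8% and 12.3%); between Artificial CD8 and CD4+CD8+ cells only Tox and Tox2 passed, both higher (6.54% higher). Tox, a driver of receptor expression in exhausted cells and of thymocyte selection, had 26.0 ± 2.46 CPM in iRTE, 84.8 ± 2.53 in Artificial CD8, 56.1 ± 4.55 in CD4+CD8+ and 69.1 ± 2.82 in splenic cells, and was lower in iRTE than in Artificial CD8 by a log2 change of -1.70 (SE 0.07, edgeR adjusted p = 1.38e-10). Tox2 had 0.702 ± 0.528 CPM in iRTE, 80.8 ± 5.38 in Artificial CD8, 11.3 ± 1.42 in CD4+CD8+ and 0.0592 ± 0.0600 in splenic cells, so that Artificial CD8 stood above CD4+CD8+ cells and these above the other groups, as for Pdcd1, with a change of -6.92 between iRTE and Artificial CD8 (SE 0.61, edgeR adjusted p = 7.45e-10). Foxp3, the regulatory T-cell factor, had 1.71 ± 1.23 CPM in iRTE, 28.8 ± 1.82 in Artificial CD8, 17.8 ± 5.94 in CD4+CD8+ and 1.84 ± 0.827 in splenic cells. Bach2 ran the other way, at 69.9 ± 17.8 CPM in iRTE, 20.9 ± 4.00 in Artificial CD8, 22.9 ± 4.73 in CD4+CD8+ and 151 ± 11.3 in splenic cells (iRTE over Artificial CD8 1.74, SE 0.21, edgeR adjusted p = 2.75e-07). The 4 genes listed as markers of CD4 helper and regulatory cells (Foxp3, Cd40lg, Zbtb7b and Il2ra), which share receptors such as Ctla4, summed to 20.2 to 184 CPM in iRTE, 528 to 613 CPM in Artificial CD8, 224 to 242 CPM in CD4+CD8+ and 4.70 to 7.42 CPM in splenic cells. Il2ra, which other activated and developing T cells also express, made up most of these sums, at 94.2 ± 64.5 CPM in iRTE, 534 ± 38.3 in Artificial CD8, 213 ± 14.2 in CD4+CD8+ and 4.07 ± 0.373 in splenic cells. The helper-lineage genes were near or at 0: Cd40lg had no count in iRTE, 0.113 ± 0.253 CPM in Artificial CD8, 0.366 ± 0.184 in CD4+CD8+ and 0.0278 ± 0.0396 in splenic cells, and Zbtb7b had 0.456 ± 0.584, 0.0367 ± 0.0821, 0.0558 ± 0.0966 and 0.0711 ± 0.131 CPM in iRTE, Artificial CD8, CD4+CD8+ and splenic cells.

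Of 19 other inhibitory receptors and ectoenzymes, 18 were found and 12 tested. In iRTE 5 were higher and 2 lower than in Artificial CD8 (38.7% of all genes called), and 5 were higher and 4 lower than in splenic cells (58.2%); Artificial CD8 had 3 higher and 6 lower than splenic cells (60.6%). 4632428N05Rik, the symbol in the files for Vsir (VISTA), was higher in iRTE than in every other group, at 773 ± 176 CPM against 203 ± 15.7 in Artificial CD8, 239 ± 18.8 in CD4+CD8+ and 427 ± 14.9 in splenic cells (edgeR adjusted p = 4.5e-09, 4.62e-07 and 1.87e-05). So was Nt5e, which encodes the adenosine-producing enzyme CD73, at 226 ± 61.1 CPM against 35.5 ± 4.75 in Artificial CD8, 55.4 ± 16.5 in CD4+CD8+ and 56.7 ± 4.86 in splenic cells (edgeR adjusted p = 4.76e-09, 2.49e-06 and 4.4e-08). Lilrb4 had 28.5 ± 18.2 CPM in iRTE, with 2.12 to 44.5 CPM between libraries, against 3.10 ± 2.09 in Artificial CD8, 1.24 ± 0.653 in CD4+CD8+ and 0.891 ± 0.327 in splenic cells, and its counts are uncertain because a near-identical gene can share its reads. Cd5, which restrains T-cell receptor signals, was lower in iRTE than in each other group, at 8.34 ± 3.71 CPM against 56.2 ± 0.809 in Artificial CD8, 66.7 ± 10.6 in CD4+CD8+ and 98.8 ± 5.29 in splenic cells (edgeR adjusted p = 2e-08, 4.73e-08 and 2.7e-10). Klrc1, which encodes NKG2A, had 0.0887 ± 0.198 CPM in iRTE, 17.1 ± 1.79 in Artificial CD8, 6.67 ± 1.47 in CD4+CD8+ and 0.0170 ± 0.0379 in splenic cells.

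The genes most like each receptor were found as the smallest root mean square difference of mean-centred log2 CPM over the 18 libraries, among 11411 genes, and are given as a description. For Pdcd1 they were Ttc26, Tubb3 and Fbp1 (0.52, 0.52 and 0.59). Tubb3, a tubulin gene, had 1.57 ± 0.288 CPM in iRTE, 120 ± 6.02 in Artificial CD8, 50.4 ± 3.5 in CD4+CD8+ and 3.21 ± 0.744 in splenic cells. For Ctla4 they were Cd163l1, Tcrg-C2 and Kcnk5 (0.45, 0.49 and 0.55), of which Tcrg-C2 has near copies and is uncertain. Cd163l1 had 3599 ± 947 CPM in iRTE, 1986 ± 115 in Artificial CD8, 1599 ± 238 in CD4+CD8+ and 105 ± 5.92 in splenic cells. For Btla they were Ulbp1, Ap4b1 and Ncln (0.29, 0.31 and 0.32), for Cd160 Pop1, Tmem256 and Vim (0.50, 0.54 and 0.55), for Tigit Acot7, Prelid2 and Tpi1 (0.53, 0.65 and 0.65), for Lair1 Tmem101, P2ry10 and Mapkapk2 (0.43, 0.45 and 0.47), and for Cd200 Fbxw10, Traj20 and Traj21 (0.96, 1.02 and 1.04). Among the receptors themselves, Cd160 and Lair1 were closest (0.72), and Ctla4 and Cd200 farthest apart (4.49).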

How the data were processed

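The data were whole-number counts per gene symbol in 18 libraries. The authors made these counts, per the submitters' processing notes, with STAR 2.4.2, Subread, edgeR and the mouse build mm9. Which annotation release and strand setting they used is not given in the sources used here. The authors' second table of normalised values was not used. Here, libraries were scaled by TMM and genes filtered by filterByExpr in edgeR 4.0.16 (R 4.3.3), keeping 13922 of 43280 genes. The quasi-likelihood model had 1 term for each group and used all libraries, with Benjamini-Hochberg adjustment. Lag3 and Havcr2, removed by the filter, were tested by two-sided exact permutation on log2(CPM + 1), with a pseudocount of 1. SE values come from log2 CPM (prior count 2), not from the fit. The steps were tested on simulated data. Alternatives were RLE scaling, no filter, at least 1 CPM in at least 5 libraries, DESeq2 1.42.0, limma-voom (limma 3.58.1), fits of the compared groups alone, a replicate block, each library left out, and subsets of iRTE libraries. Total counts of 11132768 to 19305751 set a floor of 3 counts at 0.155 to 0.269 CPM per library, which covers counting error only. Replicates differed by more than counting error (the lowest chi-square per degree of freedom of 33 pairs was 4.40). CD4+CD8+ 1 stood apart in its group, at 51.2 and 45.7 against CD4+CD8+ 2 and 3, which gave 5.40 between them. Pairs of iRTE libraries reached 155.

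The members, gene lists and markers were chosen with earlier results of these data known. Genes of the lists were named as the 2 of smallest adjusted p in each direction per comparison and up to 2 of highest mean CPM that did not pass. Cd4, Lyz2 and other genes of the marker lists were named as markers. The lists were ligands and binding partners, ligand-sharing receptors, signalling and trafficking, transcription factors, other inhibitory receptors, cell cycle genes, and markers of T, CD4+CD8+ stage, naive T, CD4 helper or regulatory, NK, gamma-delta T, B, myeloid, stromal and erythroid cells. Pvrig and Trdc were not matched in the files, and 1 marker gene is not reported here. Promoter windows came from RefSeq for 8 of the 9 genes.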

Additional observations from a re-analysis of the deposited data

Results flagged for a closer look

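Of 25 sets of 5 libraries examined (a receptor in a group), 3 held a library that stood apart from the other 4 by Dixon's criterion. Its chance rate of about 1 in 20 does not hold for counts near 0, so the 3 are not read against it. Havcr2 in splenic CD8 4 had 0.603 CPM, against 0 to 0.0849 CPM in the other splenic libraries. Lag3 in Artificial CD8 4 had 0.0507 CPM and Cd200 in iRTE 5 had 0.0639 CPM, each from 1 count where the other 4 libraries of the group had 0. Such a set gives a Dixon ratio of 1 whatever the size of the value, and both lie below the floor of 3 counts.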

How the results depend on the processing

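Of 831 recomputed changes of the members, 766 kept their direction and their side of the threshold, 38 lost a call, 18 gained one and 9 reversed. The 766 include Havcr2 among the cultured groups, which had no count there and could not change. The 38 include Lag3 between Artificial CD8 and CD4+CD8+ cells with 1 library left out, where the exact test could not pass. With iRTE 4 and 5 only, Tigit (-0.47), Cd160 (-0.24) and Lair1 (-0.52) reversed against Artificial CD8, and Tigit (-0.14), Cd160 (-1.18) and Lair1 (-0.078) against CD4+CD8+ cells. Btla over Artificial CD8 ran from -0.19 to 0.11 with 1 library left out, positive without iRTE 4, and was 0.17 in iRTE 1 to 3, and Cd160 over CD4+CD8+ to -0.052 by limma-voom; apart from the library subsets themselves, the cause was not tested. Receptors called between iRTE and Artificial CD8 numbered 2 by limma-voom and 1 in iRTE 4 and 5 only, against 4, and between iRTE and CD4+CD8+ 6 in iRTE 1 to 3, against 3. In fits of the compared groups alone 1066 genes were called between iRTE and CD4+CD8+ (3366 in the fit of all libraries) and 3363 between Artificial CD8 and CD4+CD8+ (2041). Leaving out 1 library at a time, all genes called between Artificial CD8 and CD4+CD8+ numbered 1315 to 1773, with 1315 without CD4+CD8+ 1, and receptors called between iRTE and CD4+CD8+ 2 to 6, with 6 without iRTE 4. Replicate numbers did not pair the samples (r of -0.0663 to 0.0587 over 24 same-number pairs, none over 0.1). With the number as a replicate block the Cd200 change between iRTE and Artificial CD8 was -3.45 and was no longer called (edgeR adjusted p = 0.071), and 5143 genes were called there against 5388. Depth limits Lag3 (at most 7 counts in a library), Havcr2 (at most 10), Cd200 in iRTE (at most 1) and Tigit in splenic cells (at most 6).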
